A study of Mus musculus with 9 samples.

Results

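A set of 43 genes of mitochondrial and peroxisomal fatty acid oxidation, acyl-CoA turnover and ketone body formation were examined in a mouse liver tumor, in liver labelled as adjacent to it, and in wild-type liver. The genes were chosen by name, for their function, with earlier results of these data known. Their shares beside those of all genes are thus a description, not an independent test. For each gene the probe set annotated with that symbol alone and with the highest mean over the 9 arrays was used, which gave values for 42 of the 43 genes, out of 18194 genes in all. Acnat1 was not analysed here. By the labels the tumor and the adjacent liver were taken from 1 male C57Bl6 mouse carrying the SART1+/- genotype, and the wild-type liver from 1 male C57Bl6 mouse. Each tissue was sampled as 3 pieces, 1 array per piece, at 12 months of age, on regular chow and without treatment. By the labelled diagnoses the tumor was a hepatocellular carcinoma and the liver beside it had cellular alteration, both with steatosis graded severe, whereas the wild-type tissue was normal apart from mild steatosis. Male SART1+/- mice developed such tumors spontaneously from 10 months of age, per the labels.

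Fatty acids are broken down in both organelles. Mitochondria take up long-chain acyl groups through the carnitine shuttle, in which Cpt1a, the carnitine translocase Slc25a20 and Cpt2 act in turn, and shorten them by repeated rounds of dehydrogenation, hydration, a second dehydrogenation and thiolysis. Peroxisomes take up very-long-chain and branched acyl-CoA through ABC half-transporters, use oxidases in place of dehydrogenases, and pass shortened chains on. In the liver many genes of both routes are targets of the fatty acid receptor PPAR-alpha, and acetyl-CoA from the mitochondrial route feeds ketone body formation.

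Values are log2 expression after RMA. A gene was called, and is said to have risen or fallen, when its adjusted p in limma was under 0.05 over the 13888 genes tested and its log2 difference was at least 1, which is 2-fold. Because the replicates are pieces cut from 1 tissue, the p-values carry no spread between animals, and animal, genotype and labelled steatosis cannot be told apart in the comparisons with wild-type liver. In bulk tissue, fewer cells of a type and less RNA per cell cannot be told apart either. Array medians lay between 5.76 and 5.81, and arrays of 1 group correlated at 0.996 to 0.998 across probe sets. Sart1, the altered gene, was at 7.77, 7.71 and 7.75 in tumor, 8.34, 8.39 and 8.38 in adjacent liver, and 8.35, 8.32 and 8.36 in wild-type liver. Its level in the adjacent pieces was thus not below wild type (log2 difference 0.03, SE 0.05, limma adjusted p = 0.678), and these pieces are called adjacent-labelled liver. Of 9 hepatocyte markers 0 were called in any comparison. Over all genes tested at most 8.41% rose and 4.59% fell in a comparison, so 0 of 9 is near those shares. By the adjusted p alone 4 markers were higher and 2 lower in tumor against wild-type liver, where 33.2% and 30.2% of all genes tested were. The summed linear level of the 9 markers, which the brightest ones dominate, was 153591 to 156563 in tumor, 150184 to 152421 in adjacent-labelled liver and 150065 to 151488 in wild-type liver. Summed over 10 markers each, macrophage genes ranged over 15604 to 18929, 13370 to 18309 and 9441 to 10274 in the same groups, and stellate cell and fibroblast genes over 10781 to 15697, 11483 to 15194 and 6141 to 8157. Over 6 markers, cholangiocyte genes ranged over 1038 to 1176, 2016 to 2299 and 447 to 481, and over 5 markers each, neutrophil genes ranged over 1534 to 1781, 1202 to 1466 and 448 to 502, and B cell genes over 3202 to 4590, 763 to 802 and 1179 to 2574. Bright markers can dominate these sums as well. In adjacent-labelled against wild-type liver the 5 B cell genes had a median of 0.19, with 1 called lower, 0 called higher and the lowest at -2.07. Of the 10 macrophage genes 2 were called higher and 2 lower there, over a range of -1.52 to 1.40. Over all genes tested 8.29% rose and 3.22% fell. The part of the cell types in the results below was not tested.

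In tumor against wild-type liver, most of the 42 genes were modestly lower and a few changed by far more. Among them 8 fell and 3 rose, where 4.59% of all genes tested fell and 8.41% rose. The genes that fell were the electron carrier Etfdh, the peroxisomal genes Abcd3, Pex11a, Acot3, Acnat2 and Nudt7, the cytosolic thioesterase Acot1 and the coactivator Ppargc1a, and the genes that rose were the peroxisomal transporter Abcd2, the pantetheinase Vnn1 and the hormone Fgf21. By the adjusted p alone 30 genes were lower and 5 higher, where 30.2% and 33.2% of all genes tested were. The median difference of the 42 was -0.64, beside -0.01 over all genes tested.

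**Figure D1:**
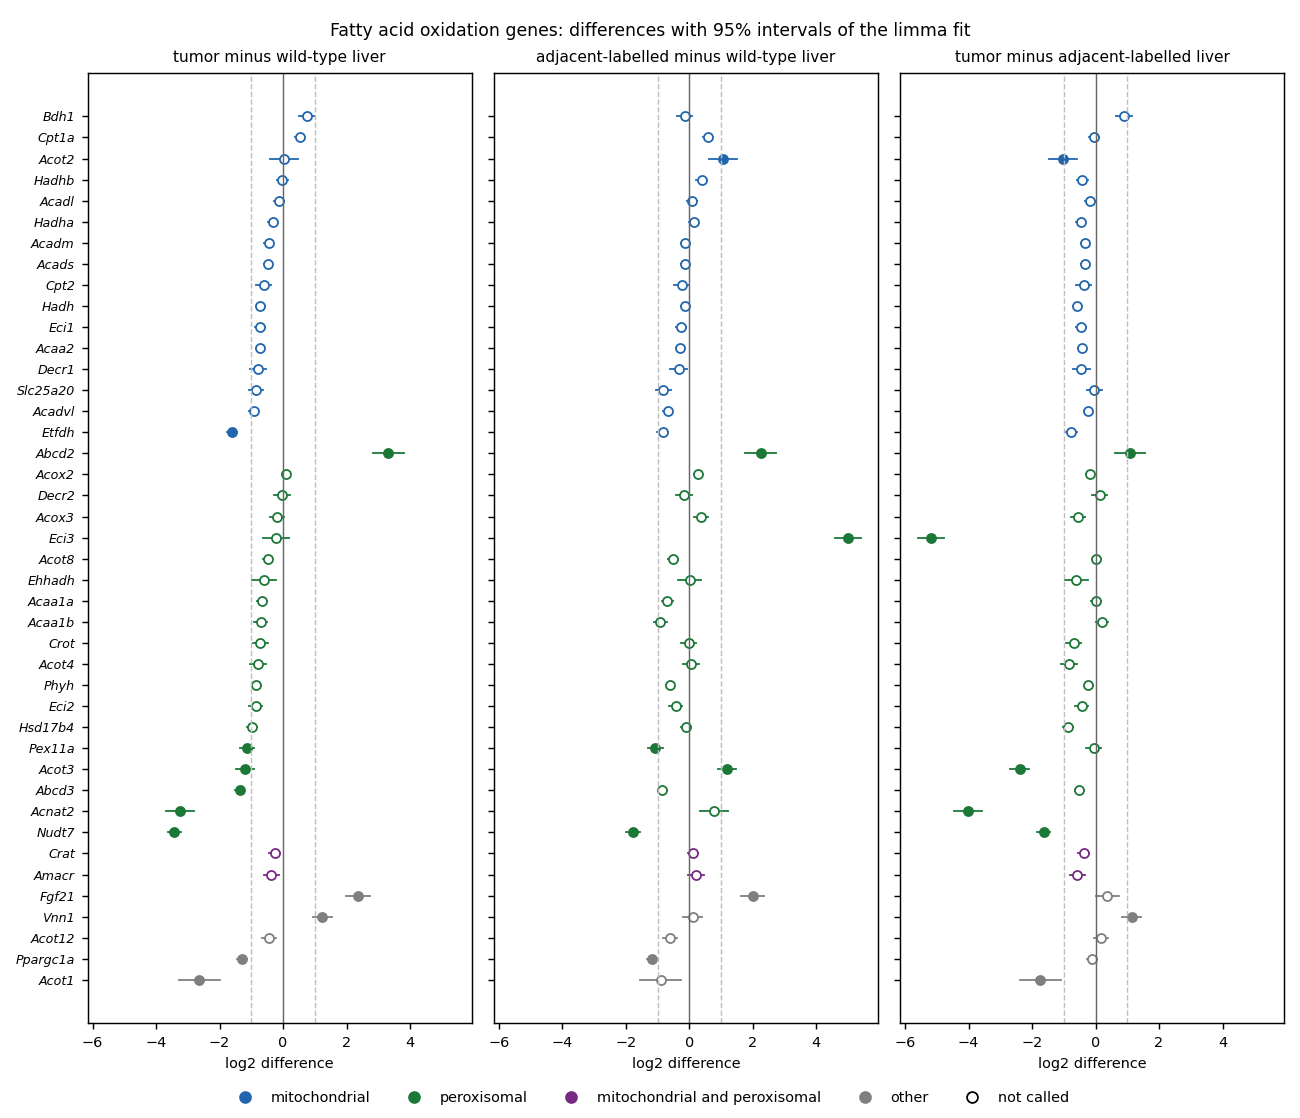
Log2 difference (x axis, the same scale in each panel) of the 42 measured genes (rows) in 3 comparisons, coloured by compartment, with 95% intervals of the limma fit as lines. Filled points passed the adjusted p and the 2-fold limit, drawn as dashed lines. Most mitochondrial genes lie between the limits in the left panel, and Nudt7 and Acnat2 lie farthest below them.

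In adjacent-labelled liver against wild-type liver the balance depended on the limit, with 5 genes that rose and 3 that fell, where 8.29% of all genes tested rose and 3.22% fell. Eci3, Abcd2, Acot2, Acot3 and Fgf21 rose, and Pex11a, Nudt7 and Ppargc1a fell. The median difference of the 42 genes was -0.14, beside -0.01 over all genes tested. With a 1.5-fold limit 12 were lower and 6 higher, where 1093 and 2296 of the 13888 genes tested were. By the adjusted p alone 18 were lower and 10 higher, where 28.9% and 34% of all genes tested were. Tumor against adjacent-labelled liver, labelled as from the same mouse, had 6 genes that fell (Acnat2, Acot1, Acot2, Acot3, Eci3 and Nudt7) and 2 that rose (Abcd2 and Vnn1), where 2.94% and 2.1% of all genes tested did. The median there was -0.40, beside -0.01 over all genes tested, and by the adjusted p alone 28 genes were lower and 3 higher, where 25.1% and 20.1% of all genes were. The comparisons share arrays, so their lists of genes are not independent of each other. In all, 13 genes were called in at least 1 comparison, and Abcd2, Acot3 and Nudt7 in all 3.

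Mitochondrial and peroxisomal genes differed little in their medians and more in their extremes. Of 16 mitochondrial genes, 1 fell and 0 rose in tumor against wild-type liver, with a median of -0.55 and a range of -1.61 to 0.74. Of 19 measured peroxisomal genes, 5 fell and 1 rose, with a median of -0.71 and a range of -3.42 to 3.32. Over all genes tested 4.59% fell, so that 1 of 16, or 6.25%, is near that share, beside 26.3% of the peroxisomal genes. By the adjusted p alone 11 of the 16 mitochondrial and 14 of the 19 peroxisomal genes were lower, 68.8% and 73.7%, beside 30.2% of all genes tested. In adjacent-labelled against wild-type liver the medians were -0.15 for mitochondrial and -0.11 for peroxisomal genes, with 1 mitochondrial gene higher (Acot2), 0 mitochondrial genes lower, and 3 peroxisomal genes higher and 2 lower. Over all genes tested 8.29% rose and 3.22% fell there, so that 1 of 16 mitochondrial genes higher, or 6.25%, is near that share. In tumor against adjacent-labelled liver the medians were -0.39 and -0.51, with 1 mitochondrial and 4 peroxisomal genes lower and 1 peroxisomal gene higher. There 2.94% of all genes tested fell and 2.1% rose. The difference between the compartments was not tested, and it depended on the limit and on the genes listed. With a 1.5-fold limit 8 of 16 mitochondrial and 13 of 19 peroxisomal genes were lower in tumor against wild-type liver, where 1431 of all 13888 were. Among the further genes described below, 33.3% of the mitochondrial and 36.4% of the peroxisomal ones fell in that comparison. Those that fell include Acadsb, Hsd17b10 and Ivd of branched-chain amino acid breakdown and Pmvk of isoprenoid synthesis. These shares therefore do not concern fatty acid oxidation alone. Crat and Amacr, which work in both organelles, were at -0.27 and -0.37 in tumor against wild-type liver and not called in any comparison.

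Eci3 and Acnat2 passed the filter on dim probe sets only through the groups in which they were high. Without them, 17 peroxisomal genes remained, of which 4 fell and 1 rose in tumor against wild-type liver, 2 fell and 2 rose in adjacent-labelled against wild-type liver, and 2 fell and 1 rose in tumor against adjacent-labelled liver. Array by array, the median deviation from the wild-type means over the mitochondrial genes was -0.45, -0.56 and -0.62 in tumor and -0.12, -0.20 and -0.15 in adjacent-labelled liver. Over all 19 measured peroxisomal genes, Eci3 and Acnat2 included, it was -0.61, -0.67 and -0.89 in tumor and -0.05, -0.21 and -0.06 in adjacent-labelled liver. For both compartments the 3 tumor pieces lay below all 3 adjacent-labelled pieces.

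**Figure D2:**
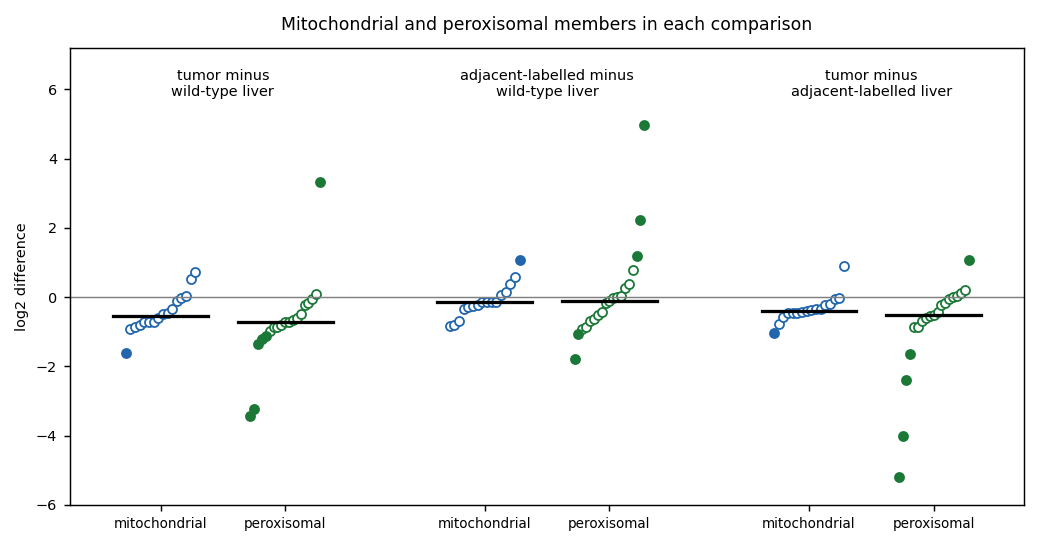
Log2 difference (y axis) of each mitochondrial and peroxisomal gene in the 3 comparisons, sorted within each column, with the median as a black line and called genes filled. The medians of tumor minus wild-type liver are -0.55 and -0.71, while the peroxisomal genes spread from -3.42 to 3.32.

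The carnitine shuttle had 0 called genes of 5 in each comparison, and its steps lay on both sides of the wild-type level. With so few genes, 0 is near the shares of all genes tested, at most 8.41% that rose and 4.59% that fell. Cpt1a, the outer-membrane carnitine palmitoyltransferase that controls entry, was at 12.39, 12.37 and 12.47 in tumor, 12.49, 12.35 and 12.56 in adjacent-labelled liver, and 11.90, 11.92 and 11.86 in wild-type liver. The 6 tumor and adjacent-labelled pieces lay above the wild-type pieces, by 0.52 in tumor (SE 0.07, limma adjusted p = 5.18e-05) and 0.57 in adjacent-labelled liver (SE 0.07, adjusted p = 2.69e-05), which is under the 2-fold limit. The dimmer probe sets of Cpt1a gave 0.29 and 0.12 in tumor and 0.43 and 0.26 in adjacent-labelled liver. Of these only the 0.43 had a limma adjusted p under 0.05 over all probe sets. Slc25a20, which carries acylcarnitine across the inner membrane, ran the other way, with 10.38, 10.32 and 10.02 in tumor, 10.44, 10.11 and 10.29 in adjacent-labelled liver, and 11.13, 11.04 and 11.11 in wild-type liver. Its differences from wild-type liver were -0.85 in tumor and -0.82 in adjacent-labelled liver (SE 0.10 each, adjusted p = 3.71e-05 and 5.79e-05). Cpt2, which rebuilds acyl-CoA inside, was at -0.61 in tumor against wild-type liver (adjusted p = 0.000544). Crot, the peroxisomal carnitine octanoyltransferase that exports shortened chains, was at 12.06, 12.00 and 11.62 in tumor, 12.64, 12.50 and 12.61 in adjacent-labelled liver, and 12.55, 12.56 and 12.72 in wild-type liver. Only the tumor pieces stood apart for Crot, by -0.69 from adjacent-labelled liver (SE 0.11, adjusted p = 0.000451).

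Etfdh was the mitochondrial gene that fell in tumor. It encodes the oxidoreductase that passes electrons from the acyl-CoA dehydrogenases to ubiquinone. Its values were 10.21, 9.94 and 10.06 in tumor, 10.89, 10.73 and 10.89 in adjacent-labelled liver, and 11.68, 11.69 and 11.66 in wild-type liver. The 3 groups did not overlap, with tumor below adjacent-labelled liver and both below wild type. The log2 difference was -1.61 for tumor against wild-type liver (SE 0.08, limma adjusted p = 2.91e-08), a 3.05-fold lower level, and -0.84 for adjacent-labelled against wild-type liver (SE 0.08, adjusted p = 4.48e-06). The dehydrogenases themselves differed less. Acadm, for medium chains, was at 12.05, 11.98 and 12.09 in tumor, 12.40, 12.29 and 12.42 in adjacent-labelled liver, and 12.49, 12.51 and 12.50 in wild-type liver. In tumor against wild-type liver the very-long-chain enzyme Acadvl was at -0.93, Acads at -0.49, Acadm at -0.46 and the long-chain enzyme Acadl at -0.12, the last with an adjusted p = 0.17.

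The later steps of the mitochondrial cycle had 0 called genes of 4 in each comparison, again near the shares of all genes tested (at most 8.41% rose and 4.59% fell). Hadh, the short-chain hydroxyacyl-CoA dehydrogenase, was at 12.63, 12.51 and 12.47 in tumor, 13.15, 13.10 and 13.10 in adjacent-labelled liver, and 13.26, 13.28 and 13.22 in wild-type liver. The tumor pieces lay below all others, with a difference from wild-type liver of -0.72 (SE 0.06, adjusted p = 1.84e-06). The thiolase Acaa2 was at -0.73 in the same comparison (SE 0.06, adjusted p = 1.3e-06). Hadha and Hadhb, the 2 subunits of the trifunctional protein that handles long chains, were lower in tumor than in adjacent-labelled liver by similar amounts, at -0.46 and -0.42 (SE 0.07 each, adjusted p = 0.000286 and 0.00102). Against wild-type liver they were at -0.33 and -0.03 in tumor and 0.13 and 0.39 in adjacent-labelled liver. Another bright probe set of Hadhb gave -0.30 for tumor against adjacent-labelled liver and 0.14 for adjacent-labelled against wild-type liver. Neither passed in limma (adjusted p = 0.197 and 0.492 over all probe sets), and a dim set gave 0.02 and 0.07. The likeness of the 2 subunits thus depended on the probe set.

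The start of Hadhb on the plus strand of chromosome 5 lies 0.273 kb from that of Hadha on the minus strand, in the RefSeq annotation of GRCm38.p6, so that the 2 genes run in opposite directions from neighbouring starts. The window from 250 bases before to 50 after the Hadhb start, chr5:30155003-30155302, plus strand, is shown because it covers most of the space between the 2 starts. Capitals mark the 228 bases that also fall within the same window of Hadha.
Hadhb: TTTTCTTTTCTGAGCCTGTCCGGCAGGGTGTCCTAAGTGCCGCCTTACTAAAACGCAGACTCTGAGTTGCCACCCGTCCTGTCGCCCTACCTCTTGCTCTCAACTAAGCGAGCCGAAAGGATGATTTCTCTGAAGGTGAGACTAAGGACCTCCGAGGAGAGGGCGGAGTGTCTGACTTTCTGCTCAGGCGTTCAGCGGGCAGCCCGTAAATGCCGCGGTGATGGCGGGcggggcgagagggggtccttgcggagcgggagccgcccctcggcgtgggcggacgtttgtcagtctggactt

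The enzymes that prepare unsaturated chains contained the largest single difference of the 42 genes. Eci3, a peroxisomal enoyl-CoA isomerase of the mouse that is a close relative of Eci2, was at 4.17, 3.94 and 3.97 in tumor, 9.24, 8.81 and 9.61 in adjacent-labelled liver, and 4.41, 4.37 and 3.93 in wild-type liver. All tumor and wild-type values lay below the 40th percentile of their arrays and all adjacent-labelled values above it, so the size of the difference depends on the background signal. It was 4.98 for adjacent-labelled against wild-type liver (SE 0.19, limma adjusted p = 6.49e-09) and -5.20 for tumor against adjacent-labelled liver (SE 0.19, adjusted p = 2.61e-08). For tumor against wild-type liver it was -0.21 (SE 0.19, adjusted p = 0.331). Its neighbour Eci2 was at 10.86, 10.65 and 10.64 in tumor, 11.24, 10.95 and 11.27 in adjacent-labelled liver, and 11.55, 11.61 and 11.60 in wild-type liver. Eci2 was lower by under 2-fold in both, at -0.87 in tumor (adjusted p = 1.32e-05) and -0.43 in adjacent-labelled liver (adjusted p = 0.00206) against wild-type liver.

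Both isomerase genes lie on chromosome 13, Eci3 at 34946614 to 34963988 and Eci2 at 34977748 to 35027115 (GRCm38.p6), 13.8 kb apart. Their promoter windows are set out together because the genes are neighbours with opposite differences in adjacent-labelled liver. The Eci3 window is chr13:34963760-34964059 and the Eci2 window chr13:34994095-34994394, both on the minus strand. They are in lower case throughout, since neither holds the motif AGGTCA described below.
Eci3: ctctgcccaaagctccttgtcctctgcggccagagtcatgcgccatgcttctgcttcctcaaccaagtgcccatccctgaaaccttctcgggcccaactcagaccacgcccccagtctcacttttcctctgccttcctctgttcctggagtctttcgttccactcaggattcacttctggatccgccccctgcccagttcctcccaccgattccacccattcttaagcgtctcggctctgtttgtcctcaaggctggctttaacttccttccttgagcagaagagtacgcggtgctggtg
Eci2: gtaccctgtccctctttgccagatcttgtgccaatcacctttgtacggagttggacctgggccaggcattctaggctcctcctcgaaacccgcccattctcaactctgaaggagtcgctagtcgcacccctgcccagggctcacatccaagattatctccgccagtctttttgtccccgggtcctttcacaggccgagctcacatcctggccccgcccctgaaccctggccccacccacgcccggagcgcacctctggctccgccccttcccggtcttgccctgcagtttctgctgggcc

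The mitochondrial partners of these enzymes were lower in tumor by under 2-fold. Decr1, the dienoyl-CoA reductase, was at 11.38, 11.24 and 11.01 in tumor, 11.81, 11.41 and 11.76 in adjacent-labelled liver, and 12.07, 12.02 and 11.90 in wild-type liver, and the groups did not overlap. Eci1 was at -0.72 in tumor against wild-type liver (SE 0.07, adjusted p = 6.14e-06). Decr2, the peroxisomal reductase, was at -0.04 in the same comparison (95% interval -0.29 to 0.20, adjusted p = 0.746).

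The peroxisomal oxidation spiral had 0 called genes of 6 in each comparison, near the shares of all genes tested (at most 8.41% rose and 4.59% fell). Its median was -0.64 in tumor and -0.05 in adjacent-labelled liver against wild-type liver. Acaa1b, a peroxisomal thiolase, was at 13.35, 13.31 and 13.10 in tumor, 13.15, 12.88 and 13.13 in adjacent-labelled liver, and 13.97, 14.00 and 13.92 in wild-type liver. The 6 tumor and adjacent-labelled pieces lay below the wild-type pieces, at -0.71 in tumor and -0.91 in adjacent-labelled liver. Its close relative Acaa1a was at -0.68 and -0.69. A dimmer probe set of Acaa1a alone gave -1.02 and -1.08, past the 2-fold limit in both comparisons with wild-type liver (adjusted p = 7.53e-05 and 5.25e-05 when it stands for the gene), so the count of 0 called genes depends on the probe set. In addition, 2 further probe sets annotated to both thiolases were not used, so the separate values of the pair are uncertain. The bifunctional enzymes Hsd17b4 and Ehhadh differed in tumor instead. Hsd17b4 was at -0.98 in tumor (SE 0.08, limma adjusted p = 1.08e-06), the closest of the 42 genes to the 2-fold limit from outside, and at -0.11 in adjacent-labelled liver (adjusted p = 0.237). Ehhadh was at -0.60 in tumor (SE 0.17, adjusted p = 0.0092) and at 0.01 in adjacent-labelled liver (adjusted p = 0.973). Among the oxidases, Acox2, which acts on bile acid precursors, was at 0.10 and 0.26, and Acox3 at -0.18 and 0.37, in tumor and adjacent-labelled liver against wild-type liver. A dimmer probe set of Acox3 gave -0.18 and -0.25, so its direction in adjacent-labelled liver depended on the probe set.

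The transporters of the peroxisomal membrane moved apart. Abcd2, a half-transporter for very-long-chain acyl-CoA, was at 10.35, 10.29 and 10.12 in tumor, 9.12, 9.11 and 9.30 in adjacent-labelled liver, and 7.27, 7.24 and 6.29 in wild-type liver. The groups did not overlap, and the third wild-type piece was lower than the other 2. Abcd2 rose by 3.32 in tumor (SE 0.22, limma adjusted p = 2.95e-07), which is 9.97-fold, and by 2.24 in adjacent-labelled liver (SE 0.22, adjusted p = 7.13e-06) against wild-type liver, and tumor exceeded adjacent-labelled liver by 1.08 (SE 0.22, adjusted p = 0.00208). Its other probe sets gave 3.41, 2.54 and, for a dim one, 0.47 in tumor against wild-type liver, and with the mean of the sets the difference of tumor from adjacent-labelled liver was 0.99. Abcd3, which carries branched-chain and dicarboxylic acyl-CoA, was at 11.61, 11.58 and 11.48 in tumor, 12.13, 12.01 and 12.07 in adjacent-labelled liver, and 12.94, 12.97 and 12.85 in wild-type liver. Here the order was reversed without overlap, at -1.36 in tumor (SE 0.06, adjusted p = 2.23e-08) and -0.85 in adjacent-labelled liver (SE 0.06, adjusted p = 9.23e-07). Another, dim probe set of Abcd3, with group means of 4.65, 4.16 and 4.83, was at -0.18 in tumor, and with the mean of both sets the tumor call was lost, at -0.77.

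Pex11a, which promotes the division of peroxisomes, was at 9.95, 9.81 and 9.81 in tumor, 10.03, 9.65 and 10.07 in adjacent-labelled liver, and 11.01, 11.03 and 10.94 in wild-type liver. It fell in both, by 1.14 in tumor (SE 0.10, limma adjusted p = 4.06e-06) with a difference of -1.08 in adjacent-labelled liver (SE 0.10, adjusted p = 7.08e-06), and the call in adjacent-labelled liver was lost without its second array, at -0.94. Phyh, the hydroxylase that starts the breakdown of phytanic acid, was at 12.53, 12.56 and 12.49 in tumor, 12.73, 12.79 and 12.75 in adjacent-labelled liver, and 13.39, 13.36 and 13.39 in wild-type liver. The spread within each group was small beside these steps, which were -0.86 in tumor (SE 0.05, adjusted p = 1.79e-07) and -0.63 in adjacent-labelled liver (SE 0.05, adjusted p = 2.33e-06) against wild-type liver, under the 2-fold limit.

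**Figure D3:**
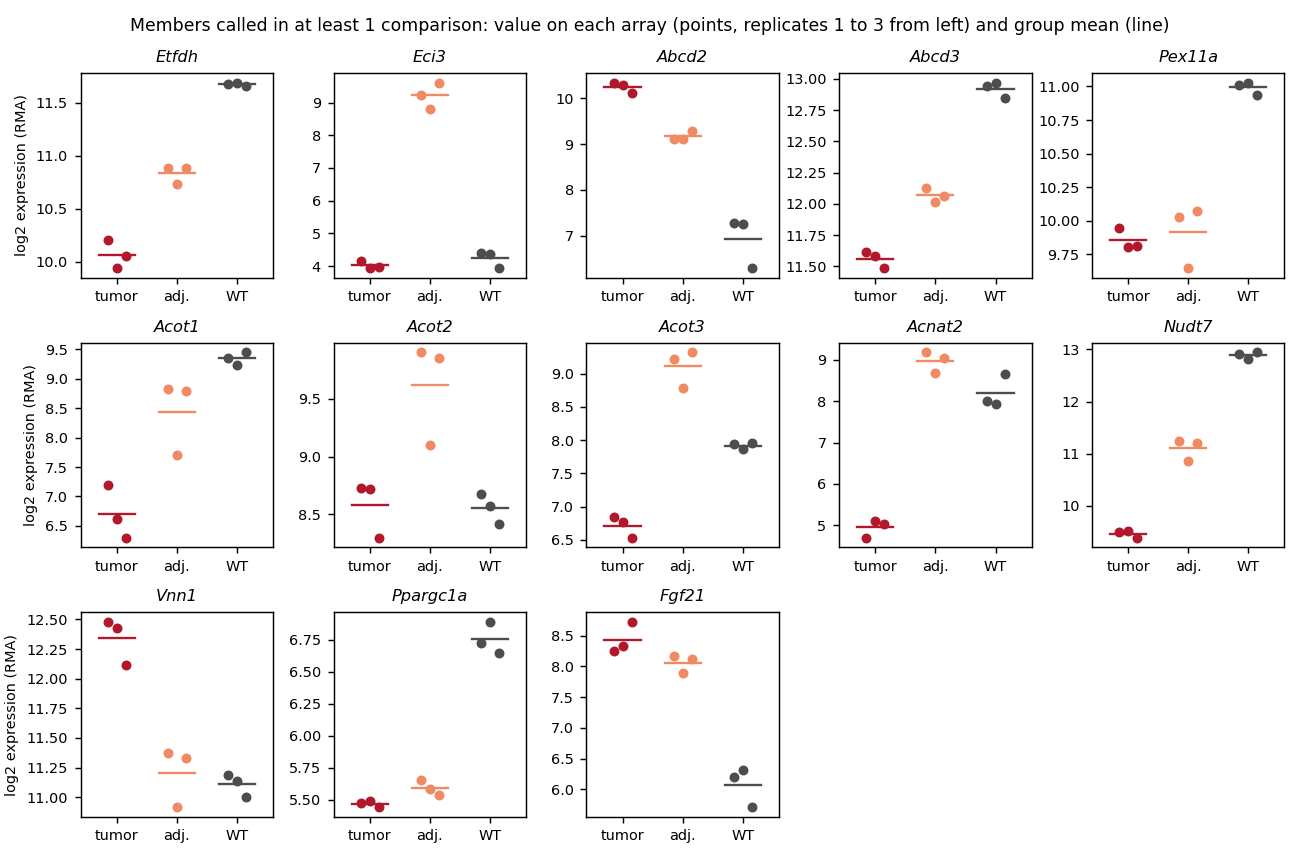
Log2 expression (y axis, a separate scale per gene) on each array of tumor, adjacent-labelled liver (adj.) and wild-type liver (WT) for the 13 genes called in at least 1 comparison, with group means as lines. Eci3, Acot2 and Acot3 are highest in adjacent-labelled liver, Nudt7, Abcd3 and Etfdh are lowest in tumor and highest in wild-type liver, and Abcd2 and Fgf21 run the other way.

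The acyl-CoA thioesterases, which release free fatty acid and CoA, gave 4 different patterns within 1 gene cluster. Acot2, Acot1, Acot4 and Acot3 lie in that order on chromosome 12, between 83987861 and 84060400 (GRCm38.p6). Acot1, the cytosolic enzyme, was at 7.19, 6.62 and 6.30 in tumor, 8.82, 7.71 and 8.80 in adjacent-labelled liver, and 9.35, 9.24 and 9.45 in wild-type liver, and it fell by 2.64 in tumor against wild-type liver (SE 0.29, limma adjusted p = 1.56e-05). Acot2, the mitochondrial enzyme, was at 8.73, 8.72 and 8.30 in tumor, 9.91, 9.10 and 9.85 in adjacent-labelled liver, and 8.68, 8.57 and 8.42 in wild-type liver. Acot2 was highest in adjacent-labelled liver, by 1.06 over wild-type liver (SE 0.20, adjusted p = 0.000868), while tumor and wild-type pieces overlapped. That call stood close to the 2-fold limit: the difference was 0.92 and 0.95 without adjacent-labelled array 1 or 3 and 0.99 without the third wild-type array. The tumor call against adjacent-labelled liver, at -1.04, was likewise lost without the same adjacent-labelled arrays or the third tumor array, at -0.89 to -0.92. A second, dimmer probe set of Acot2 gave 0.25 for adjacent-labelled against wild-type liver and -0.37 for tumor against adjacent-labelled liver, and with the mean of both sets the differences were 0.65 and -0.70, neither of them called.

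Acot3, a peroxisomal long-chain thioesterase, moved in opposite directions in tumor and adjacent-labelled liver. It was at 6.85, 6.77 and 6.53 in tumor, 9.22, 8.78 and 9.33 in adjacent-labelled liver, and 7.94, 7.87 and 7.95 in wild-type liver. It fell by 1.20 in tumor (SE 0.13, adjusted p = 1.51e-05) and rose by 1.19 in adjacent-labelled liver (SE 0.13, adjusted p = 1.84e-05) against wild-type liver, and the test of the difference between the tissues gave -2.39 (SE 0.13, adjusted p = 3.05e-07). Acot4, the peroxisomal succinyl-CoA thioesterase, was at -0.80 in tumor (adjusted p = 0.000108) and 0.05 in adjacent-labelled liver (adjusted p = 0.736). The enzymes are similar in sequence, and 1 probe set annotated to both Acot1 and Acot2 was not used, so signal shared between them cannot be separated here. Outside the cluster, Acot8 was at -0.49 and -0.51 and the cytosolic acetyl-CoA thioesterase Acot12 at -0.43 and -0.62, in tumor and adjacent-labelled liver against wild-type liver.

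The promoter windows of Acot3 and Acot4 are given because these neighbours differed in adjacent-labelled liver and both hold the hexamer AGGTCA, the half-site to which PPAR-alpha and its partner RXR bind as a spaced pair. The Acot3 window is chr12:84051894-84052193 and the Acot4 window chr12:84038129-84038428, both on the plus strand, and capitals mark the hexamer, here as its reverse complement.
Acot3: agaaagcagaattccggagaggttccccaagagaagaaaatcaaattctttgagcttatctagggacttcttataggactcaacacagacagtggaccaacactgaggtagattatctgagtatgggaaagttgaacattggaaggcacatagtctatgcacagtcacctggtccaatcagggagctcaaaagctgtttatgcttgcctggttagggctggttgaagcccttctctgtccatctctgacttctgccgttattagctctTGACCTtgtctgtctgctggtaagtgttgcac
Acot4: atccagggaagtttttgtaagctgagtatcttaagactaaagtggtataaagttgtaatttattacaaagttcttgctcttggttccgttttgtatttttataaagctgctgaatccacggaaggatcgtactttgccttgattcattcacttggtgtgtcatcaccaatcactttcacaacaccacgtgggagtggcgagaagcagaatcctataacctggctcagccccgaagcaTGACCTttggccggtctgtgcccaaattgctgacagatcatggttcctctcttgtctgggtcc

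Promoter windows were found for 36 of the 43 genes, 42 windows in all, since some genes have several starts. AGGTCA was present on either strand in 8 of the 42 windows, or 19%, beside 16.3% of 32851 windows of all genes. A pair of AGGTCA with 1 base of any kind between the copies was in 0 of the 42 windows and in 0.0396% of all windows, and the same pair built from AGGNCA, which takes in the stricter one, in 0 of the 42 and in 0.381% of all. A match or its lack concerns these letters in this window alone.

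Nudt7 and Acnat2 had the largest falls in tumor against wild-type liver. Nudt7, a peroxisomal enzyme that breaks down CoA, lies on chromosome 8 at 114133574 to 114154731. It was at 9.49, 9.51 and 9.39 in tumor, 11.24, 10.86 and 11.21 in adjacent-labelled liver, and 12.91, 12.81 and 12.95 in wild-type liver. The 3 groups were well separated, with adjacent-labelled liver between the other 2. Nudt7 fell by 3.42 in tumor (SE 0.10, limma adjusted p = 7.08e-10), to a level 10.7-fold lower, and adjacent-labelled liver differed from wild-type liver by a log2 value of -1.78 (SE 0.10, adjusted p = 9.76e-08). Its 3 other probe sets gave -3.44, -2.40 and -1.5 in tumor and -1.77, -2.15 and -1.27 in adjacent-labelled liver, but for tumor against adjacent-labelled liver, where the chosen set gave -1.64, they gave -1.67, -0.25 and -0.23, and the mean of all sets was not called, at -0.95.

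Acnat2 belongs to a family of peroxisomal acyltransferases that includes enzymes joining fatty acids to amino acids. It was at 4.70, 5.11 and 5.04 in tumor, 9.18, 8.67 and 9.05 in adjacent-labelled liver, and 8.01, 7.93 and 8.65 in wild-type liver. The tumor values lay below the 40th percentile of their arrays, so that the difference of -3.25 from wild-type liver (SE 0.20, limma adjusted p = 1.69e-07) depends on background. Adjacent-labelled liver lay above wild-type liver by 0.77 (SE 0.20, adjusted p = 0.00586), under the 2-fold limit, and tumor against adjacent-labelled liver gave -4.02 (SE 0.20, adjusted p = 1.52e-07). Vnn1, which releases pantothenate for CoA synthesis, went up in tumor. It was at 12.48, 12.43 and 12.11 in tumor, 11.38, 10.91 and 11.33 in adjacent-labelled liver, and 11.18, 11.14 and 11.00 in wild-type liver. Vnn1 rose by 1.23 in tumor against wild-type liver (SE 0.13, adjusted p = 1.28e-05) and by 1.13 against adjacent-labelled liver (SE 0.13, adjusted p = 5.2e-05), or by 0.99 without the second adjacent-labelled array. Its other probe set gave 1.61 and 1.64 in these comparisons.

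Bdh1, the mitochondrial dehydrogenase that forms beta-hydroxybutyrate, stood higher in tumor than in both livers. Its values were 12.75, 12.63 and 12.25 in tumor, 11.70, 11.63 and 11.64 in adjacent-labelled liver, and 11.84, 11.84 and 11.75 in wild-type liver. The tumor pieces lay above all others, by 0.74 over wild-type liver (SE 0.11, limma adjusted p = 0.000148) and by 0.89 over adjacent-labelled liver (SE 0.11, adjusted p = 7.25e-05), and neither difference reached 2-fold. A second probe set gave 1.23 for tumor against adjacent-labelled liver.

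The 2 regulators moved in opposite directions. Ppargc1a, a coactivator of PPAR-alpha and of mitochondrial biogenesis, was at 5.48, 5.49 and 5.44 in tumor, 5.65, 5.58 and 5.54 in adjacent-labelled liver, and 6.72, 6.89 and 6.64 in wild-type liver. It fell by 1.28 in tumor (SE 0.07, limma adjusted p = 8.5e-08) and by 1.16 in adjacent-labelled liver (SE 0.07, adjusted p = 2.27e-07), and its 4 other probe sets had the same sign, at -1.18 to -0.77 in tumor and -1.65 to -0.81 in adjacent-labelled liver. With the mean of its probe sets the tumor call was lost, at -0.98. All tumor and adjacent-labelled values of Ppargc1a lay below the array medians of 5.76 to 5.81, so the sizes may depend on background. Fgf21, a liver hormone of fasting and stress and a known PPAR-alpha target, was at 8.25, 8.33 and 8.73 in tumor, 8.17, 7.90 and 8.12 in adjacent-labelled liver, and 6.20, 6.31 and 5.70 in wild-type liver. It rose by 2.36 in tumor (SE 0.17, adjusted p = 5.22e-07), or 5.15-fold, and by 1.99 in adjacent-labelled liver (SE 0.17, adjusted p = 2.37e-06). Tumor and adjacent-labelled pieces did not overlap, but their difference of 0.37 did not pass (SE 0.17, adjusted p = 0.095).

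Other genes of these and neighbouring pathways were taken from lists chosen for function, also with earlier results of these data known. The counts of these lists stand beside 4.59% of all genes tested that fell and 8.41% that rose in tumor, and 3.22% and 8.29% in adjacent-labelled liver, against wild-type liver, and 2.94% and 2.1% in tumor against adjacent-labelled liver. Of 15 further mitochondrial genes tested, 5 fell and 1 rose in tumor against wild-type liver, with a median of -0.78, and 14 were lower by the adjusted p alone, as were 30.2% of all genes tested. Acadsb at -1.96, Hsd17b10 at -1.36 and Ivd at -1.12, which serve the breakdown of branched-chain amino acids, were among those that fell. The mitochondrial thioesterase Acot9 rose by 1.89. Of 11 further peroxisomal genes, 4 fell and 0 rose, with a median of -0.68. Hacl1, the lyase of phytanic acid breakdown that acts after Phyh, fell by 3.08 (SE 0.08, limma adjusted p = 5.9e-10), and Pecr, an enoyl-CoA reductase, by 1.87 (SE 0.06, adjusted p = 1.51e-09). Ech1, an isomerase of unsaturated chains, fell by 1.07 (SE 0.08, adjusted p = 1.34e-06), and Pmvk, a kinase of isoprenoid synthesis, was at -1.78.

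In adjacent-labelled against wild-type liver, 4 of the further mitochondrial genes fell and 1 rose, with a median of -0.55. Those that fell were Acadsb at -1.82, Hsd17b10 at -1.80, Ivd at -1.42 and Acad8 at -1.18, and Acot9 was at 2.53. All 4 that fell serve the breakdown of branched-chain amino acids, so the count does not concern fatty acid breakdown alone. Of the further peroxisomal genes 1 fell, Pmvk, at -1.74. In tumor against adjacent-labelled liver the counts were 3 lower of the mitochondrial genes (Acad9 at -1.0, Acot13 at -1.08 and Acad10 at -1.10) and 1 lower of the peroxisomal genes (Hacl1 at -2.13). Of 4 further ketone body genes, the cytosolic dehydrogenase Bdh2 fell by 2.83 in tumor and by 1.44 in adjacent-labelled liver against wild-type liver, and by 1.39 in tumor against adjacent-labelled liver. Oxct1, which serves ketone body use, rose by 1.22 and 1.06 in tumor and adjacent-labelled liver against wild-type liver.

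Of 16 genes that comprise PPAR-alpha and its liver targets outside the 42, 7 fell and 1 rose in tumor against wild-type liver, with a median of -0.81. In adjacent-labelled against wild-type liver 2 were lower and 1 higher (median -0.54), and in tumor against adjacent-labelled liver 3 were lower and 0 higher (median -0.36). Over all genes tested 4.59%, 3.22% and 2.94% fell and 8.41%, 8.29% and 2.1% rose in these comparisons, in that order. Cyp4a14, a fatty acid omega-hydroxylase, was at -5.93 in tumor and -3.20 in adjacent-labelled liver against wild-type liver, and at -2.73 in tumor against adjacent-labelled liver. Retsat, retinol saturase, fell by 3.15 in tumor against wild-type liver and by 2.57 against adjacent-labelled liver. Slc25a42, the mitochondrial CoA carrier, was at -1.78 in tumor and -1.02 in adjacent-labelled liver against wild-type liver. Cd36, a fatty acid receptor, rose by 1.13 in adjacent-labelled against wild-type liver, and G0s2, an inhibitor of lipolysis, fell by 1.04 in tumor against adjacent-labelled liver.

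Ppara itself was at 11.15, 11.10 and 10.82 in tumor, 10.07, 10.06 and 10.15 in adjacent-labelled liver, and 10.83, 10.90 and 10.93 in wild-type liver. Only the adjacent-labelled pieces stood apart, at -0.79 against wild-type liver (SE 0.08, limma adjusted p = 1.34e-05), while tumor against wild-type liver gave 0.14 (SE 0.08, adjusted p = 0.176). Of 14 regulators outside the 42 genes, Ppara among them, 2 fell and 1 rose in tumor against wild-type liver. In adjacent-labelled against wild-type liver 1 fell and 1 rose. Over all genes tested 4.59% fell and 8.41% rose in tumor, and 3.22% and 8.29% in adjacent-labelled liver. With so few genes, 1 of 14, or 7.14%, is near those shares. Lpin1, a phosphatidate phosphatase that also acts with Ppargc1a, was at -2.17 in tumor and -3.24 in adjacent-labelled liver, and 1.07 higher in tumor than in adjacent-labelled liver. The mitochondrial deacetylase Sirt3 was at -1.16 in tumor, and Fgfr1, a receptor for FGF hormones, at 1.72 in tumor and 2.57 in adjacent-labelled liver against wild-type liver.

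Genes of the organelles as such were listed apart. Of 16 genes of peroxisome biogenesis, 4 fell and 0 rose in tumor against wild-type liver, with a median of -0.40, including the membrane protein Pxmp2 at -1.52, Pex11g at -1.47 and the import receptor Pex5 at -1.28. In adjacent-labelled against wild-type liver Pxmp2 alone was called, at -1.11, and the median was -0.36. Of 14 genes of general mitochondrial proteins 0 were called in any of the 3 comparisons, with medians of -0.14, 0.10 and -0.17 for tumor against wild-type, adjacent-labelled against wild-type and tumor against adjacent-labelled liver. With so few genes, 0 of 14 is near the shares of all genes tested, at most 8.41% that rose and 4.59% that fell. By the adjusted p alone 4 of the 14 were higher and 6 lower in tumor against wild-type liver. Over all genes tested 33.2% and 30.2% were.

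**Figure D4:**
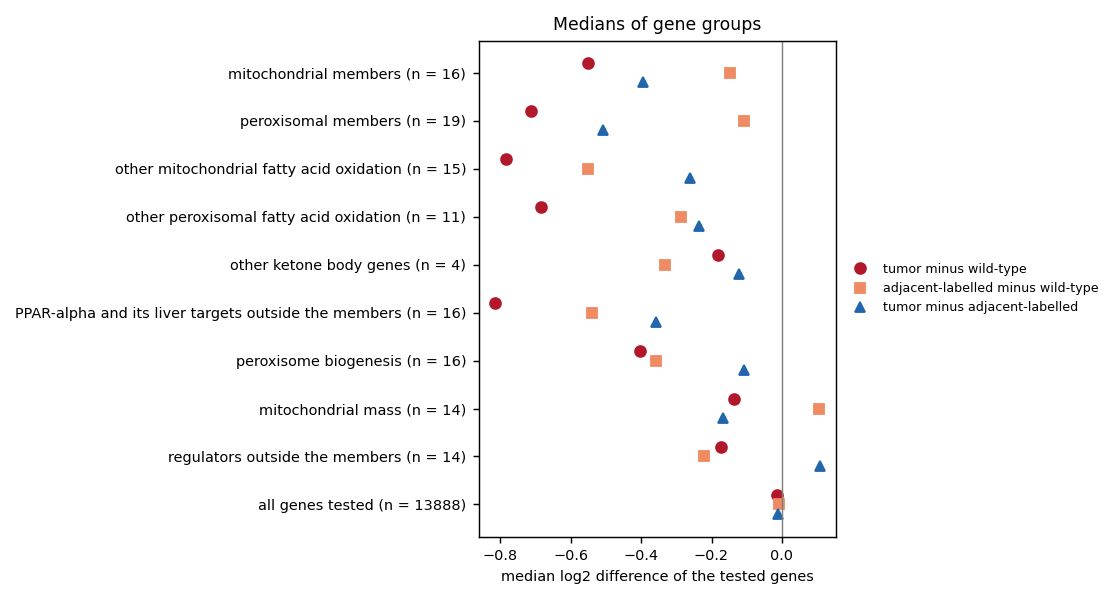
Median log2 difference (x axis) of the mitochondrial and peroxisomal genes and of 7 further gene lists (rows), beside all 13888 genes tested, in 3 comparisons. The medians of tumor minus wild-type liver run from -0.81 to -0.14 over the gene groups, and the genes of general mitochondrial proteins lie nearest to 0 in that comparison.

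Pieces of a group differed in a way shared by many of the 42 genes. The second adjacent-labelled array was the lowest of its group for 35 of the 42 genes, or 83.3%, where it was the lowest for 44% of all genes tested. The third tumor array was the lowest of its group for 29 of the 42, or 69%, beside 33.8% of all genes, and the third wild-type array for 27, or 64.3%, beside 38.8%. For Acot1 this reached 7.71 in the second adjacent-labelled array, against 8.82 and 8.80 in the other 2. The part of these arrays in the results was not tested beyond leaving each out in turn.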

How the data were processed

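Total liver or tumor RNA of 9 pieces, 3 per group, was measured on Affymetrix 3' arrays with 45101 probe sets. The deposited values are log2 expression made by the authors, who per the submitters' processing notes used RMA and Affymetrix Expression Console 1.3.1.187. They ran from 2.25 to 14.51, and were used unchanged. RMA equalises the arrays, so a shift shared by most genes would not appear, and dim probe sets have compressed differences. The number of arrays limits the precision.

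Of the probe sets, 34958 had 1 gene symbol, 932 several and 9211 none in the platform annotation. For each of 18194 genes the probe set with 1 symbol and the highest mean over the 9 arrays was kept, and 13888 genes whose value exceeded percentile 40 of its array in 3 or more arrays were tested. limma 3.58.1 in R 4.3.3 was fitted with 1 mean per group over all 9 arrays and 6 residual degrees of freedom, with Benjamini-Hochberg adjustment over all genes tested. Named genes are all called members, the member with the highest mean in each role, and further members that complete a step. Of each list, up to 3 called genes with the smallest adjusted p per comparison are named. Some further called list genes and Ppara are named as well. The members and lists were chosen with earlier results of these data known. Compartments and roles were assigned from general knowledge. Tested on simulated data with 13888 genes, a log2 change of 2 was called in 100% of cases in each comparison, and a change of 1 in 48%, 42% and 66% for tumor against wild-type, adjacent-labelled against wild-type and tumor against adjacent-labelled liver. Promoter windows are those of RefSeq for GRCm38.p6. Other thresholds, filters, probe-set rules, normalizations, array weights, a replicate block and leaving out each array were tried as alternatives.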

Additional observations from a re-analysis of the deposited data

Results flagged for a closer look

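For 8 of the 42 genes, the effect in tumor and the effect in adjacent-labelled liver, each against wild-type liver, differed in limma by an adjusted p under 0.05 and at least 2-fold. Since both effects share the wild-type arrays, their difference is the comparison of tumor with adjacent-labelled liver. It was -2.39 for Acot3, -1.74 for Acot1, -1.64 for Nudt7 and -1.04 for Acot2. It was 1.13 for Vnn1 and 1.08 for Abcd2. For Eci3, at -5.20, and Acnat2, at -4.02, the tumor values lay below the 40th percentile of their arrays, and both genes passed the filter only through groups in which they were high, so these sizes depend on background. Acot3 was the gene of the 8 that was called in opposite directions against wild-type liver in the 2 tissues. The labels place the tumor and the adjacent-labelled pieces in 1 mouse, so there is no spread between animals behind these differences.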

How the results depend on the processing

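Under 12 alternatives and with each of the 9 arrays left out, 19 of the 27 called differences were called in every one. In adjacent-labelled against wild-type liver the balance of 5 higher and 3 lower turned, to 6 higher and 12 lower with a 1.5-fold limit and 10 higher and 18 lower by the adjusted p alone. With a 1.5-fold limit 4 and 3 genes were higher in tumor against wild-type and against adjacent-labelled liver, and the genes lower numbered 23 for tumor against wild-type liver (8 mitochondrial, 13 peroxisomal), 12 for adjacent-labelled against wild-type liver (3 and 6) and 11 for tumor against adjacent-labelled liver (2 and 8). By the adjusted p alone they numbered 30 (11 and 14), 18 (7 and 8) and 28 (12 and 13), and those higher 5 and 10 in the comparisons with wild-type liver. Over all 13888 genes tested, the 1.5-fold limit gave 1431, 1093 and 1171 lower and 2296, 2296 and 837 higher in the 3 comparisons. By the adjusted p alone 30.2%, 28.9% and 25.1% of all genes were lower and 33.2%, 34% and 20.1% higher. Cyclic loess gave 2 mitochondrial genes lower in tumor against wild-type liver. The mean of a gene's probe sets gave 0 mitochondrial genes lower in tumor against adjacent-labelled liver, and a peroxisomal median there of -0.24 in place of -0.51; the cause was not tested. Leaving out 1 array gave 3 to 3 higher and 8 to 9 lower for tumor against wild-type liver (1 to 1 mitochondrial and 5 to 6 peroxisomal lower), 4 to 5 and 2 to 4 for adjacent-labelled against wild-type liver (0 to 0 and 1 to 2), and 1 to 3 and 5 to 6 for tumor against adjacent-labelled liver (0 to 1 and 4 to 4). Arrays with the same replicate number did not deviate together (correlations of -0.11 to 0.14), and the fit with the replicate block gave the same counts, such as 8 lower and 3 higher for tumor against wild-type liver.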
